A study of Mus musculus with 8 samples.

Results

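The nuclear-encoded genes of the mitochondrial respiratory chain were followed in mouse kidney tubuloid cultures with and without a pulse of glial-derived neurotrophic factor (GDNF). They were chosen by symbol: all listed genes of the *Ndufa*, *Ndufb*, *Ndufc*, *Ndufs* and *Ndufv* families, *Sdha* to *Sdhd*, all *Uqcr* genes, the *Cox4* to *Cox8* families and all *Atp5* genes. This gave 84 of the 24063 symbols in the deposited tables, with 37 in complex I, 4 in complex II, 8 in complex III, 18 in complex IV and 17 in complex V. Complex was assigned by the start of the symbol alone, whatever enzyme the product belongs to. *Ndufa4* and *Ndufa4l2* are thus counted with complex I and *Cox7a2l* with complex IV. Of the 84, 81 passed the filter on low counts and were tested among 16557 genes, and *Cox7b2*, *Cox8b* and *Cox8c* did not pass.

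Complexes I and II pass electrons from NADH and succinate to ubiquinone, complex III passes them to cytochrome c, complex IV hands them to oxygen, and complex V, the ATP synthase, uses the resulting proton gradient to make ATP. Except for complex II, each complex also holds core subunits encoded in mitochondrial DNA, so its nuclear genes supply only part of the enzyme. In the kidney, mitochondria are densest in the proximal tubule and the thick ascending limb, where reabsorption of solute consumes most ATP.

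Fragments of tubules from whole postnatal kidney grow in Matrigel into epithelial structures called tubuloids, and RNA-Seq was performed on 4 cultures that received GDNF for 24 h and on 4 control cultures given the same growth factor medium without it. RNA was taken after 7 days of culture from kidneys labelled as postnatal day 7 to 10, while the study's methods describe younger pups. Every culture had the genotype Pkd2fl/fl Pax8rtTA TetOCre mTmG, in which *Pax8* drives a doxycycline-inducible Cre in renal epithelium. Neither the labels nor the methods name doxycycline for this experiment, so *Pkd2* was floxed in both groups and neither group is described as inactivated. Cultures are named by the numbers in their labels: controls 3, 7, 14 and 21, and GDNF cultures 6, 12, 17 and 22. The labels do not say which cultures came from separate animals, so p-values measure the spread between these cultures.

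Total counts ranged from 72991721 to 97490625 per culture, and no mitochondrially encoded gene was listed. Control 3 stood apart from the other cultures: its scaling factor from the trimmed mean of M-values (TMM), which sets libraries on a common scale, was 0.790, against 0.963 to 0.982 in the other controls and 1.07 to 1.11 in the GDNF cultures. Epithelial marker genes summed to between 539 and 3992 TPM, the length-normalized transcript abundance of the authors, in the controls and to between 1196 and 1827 TPM in the GDNF cultures, and the median log2 fold change of the 8 markers was −0.61. Of the 8, 1 was lower at an unadjusted p of 0.05, beside 12.9% of all genes tested, and 0 were higher, beside 9.25%. The lower marker was *Krt8*, with a log2 fold change of −1.45. *Krt18* and *Krt19*, the markers of next smallest p, were at −1.25 and −0.98 without passing. *Krt8* was at 1041, 250, 112 and 1315 CPM (counts scaled to a common library size by TMM) in controls 3, 7, 14 and 21. It was at 285, 223, 270 and 216 CPM in GDNF 6, 12, 17 and 22. For each of these keratins, controls 3 and 21 lay above every GDNF culture, and control 14 lay below every GDNF culture. The part of epithelial RNA in the respiratory chain values was not tested. The 12 proximal tubule markers together reached no more than 25.4 TPM and the 7 markers of thick ascending limb and distal tubule no more than 7.90 TPM in any culture, so the segments known for dense mitochondria were represented by little RNA. In such bulk samples, fewer cells of a type and less RNA per cell cannot be told apart.

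Respiratory chain transcripts were abundant. The median over the 81 tested genes, each as its mean TPM over the 8 cultures, was 314 TPM, against 8.48 TPM for all genes tested, which placed it at the 97.9th percentile. *Ndufa4* was the most abundant at 2255 TPM, followed by *Cox6c* at 1779 TPM, *Atp5e* at 1483 TPM and *Cox7c* at 1434 TPM. The least abundant tested gene was *Cox6a2*, the muscle form of a complex IV subunit, at 0.572 TPM. By complex, the median level was highest for complex III at 744 TPM and lowest for complex II at 126 TPM.

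Nearly every respiratory chain gene had a lower mean in the GDNF cultures. The mean was lower for 78 of the 81 and higher for *Cox6a2*, *Atp5s* and *Atp5sl*. At an unadjusted p of 0.05 (edgeR's quasi-likelihood test), 69 were lower, a direction and threshold met by 12.9% of all genes tested, and 0 were higher, against 9.25% of all genes. None passed Benjamini-Hochberg adjustment over all genes in edgeR, where 0% of genes tested were called and the smallest adjusted p of any respiratory chain gene was 0.167. limma-voom also called 0 at its adjusted p, whereas DESeq2 called 48 at an adjusted p of 0.05, all lower, against 6.86% of all genes tested. The median log2 fold change over the 81 was −0.65, which is 36.4% lower, beside 0.03 for all genes tested. Their middle 50% lay between −0.71 and −0.58, while the middle 50% of all genes tested spanned −0.34 to 0.35.

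**Figure D1:**
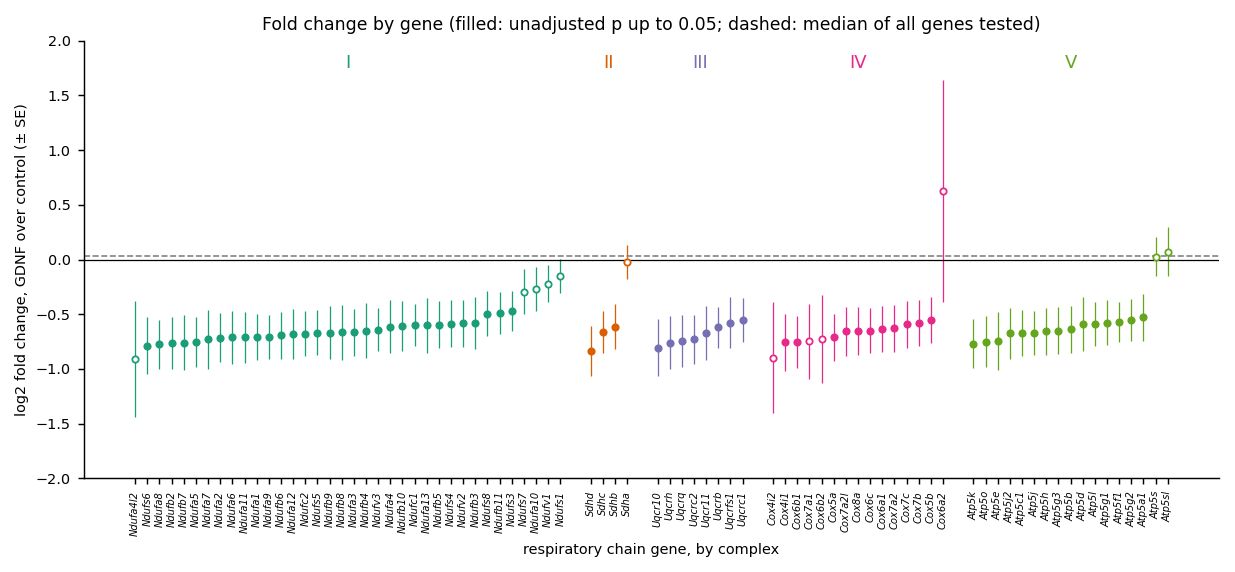
Log2 fold change, GDNF over control, of 80 of the 81 tested respiratory chain genes (vertical axis, ± SE) in order within complexes I to V (horizontal axis). Filled points have an unadjusted p of up to 0.05 in edgeR, and the dashed line is the median of all genes tested at 0.03. The 68 filled points lie between −0.83 (*Sdhd*) and −0.47 (*Ndufs3*), and the open points include *Sdha*, *Ndufs1* and *Ndufv1* nearer to 0.

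Control 3 and GDNF 22 stood at the ends of the range. Control 3 had the highest CPM (counts scaled to a common library size by TMM) for 76 of the 81 genes and GDNF 22 had the lowest for 63. All GDNF cultures lay below all controls for 24 of the 81, against 6.26% of all genes tested. Without control 3, 54 genes were lower at an unadjusted p of 0.05, beside 8.18% of all genes, and the median log2 fold change was −0.42. Without GDNF 22, 43 were lower, beside 7.88%, and the median was −0.59. Without control 21, the control with the lowest summed level, 73 were lower, beside 15.3%.

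Cultures also differed in the RNA of sex chromosomes: controls 3 and 7 and GDNF 6 and 12 carried mainly *Xist*, and controls 14 and 21 and GDNF 17 and 22 mainly Y-linked RNA. Control 3 and GDNF 6 held both, with 12.5 and 57.4 TPM of *Xist* and 1.502 and 6.46 TPM of Y-linked genes. Within the *Xist* cultures the median log2 fold change of the respiratory chain genes was −0.79 with 45 lower, beside 6.37% of all genes, and within the Y-linked cultures it was −0.48 with 28 lower, beside 4.56%. The direction of the median was thus the same in both kinds of culture, with 2 cultures per group in each.

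**Figure D2:**
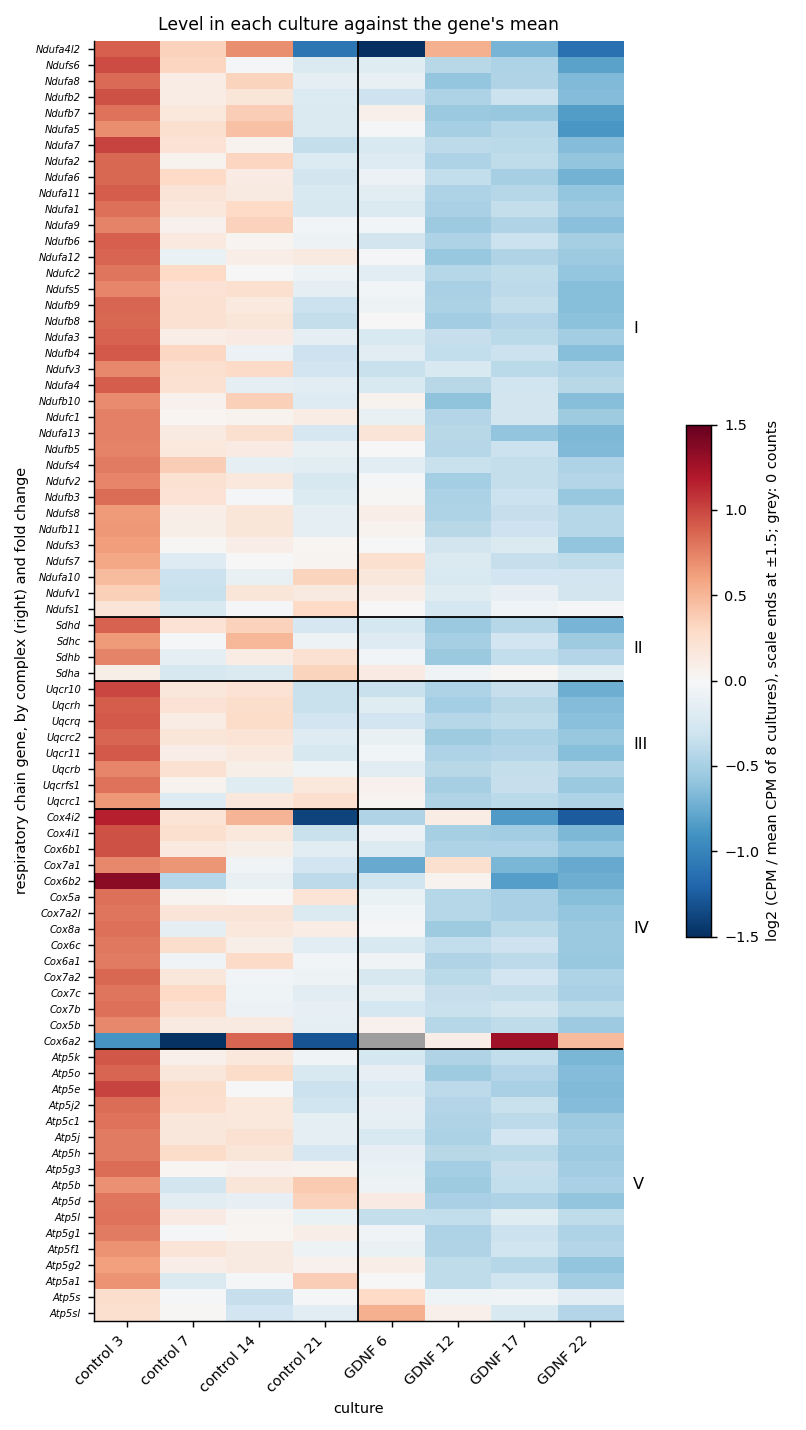
Level of 80 of the 81 tested genes in each culture, as the log2 ratio of its CPM to its mean CPM over the 8 cultures (colour; grey, 0 counts). Genes are ordered by complex and, within it, by fold change, with the control cultures left of the black line. Control 3 is the highest culture for 76 of the 81 genes, and the GDNF cultures form a lower block with GDNF 22 lowest for 63.

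The complexes kept their proportions. Summed over all 84 genes, the level was 32267 CPM in control 3, 19973 in control 7, 19596 in control 14 and 16681 in control 21, and 16643 CPM in GDNF 6, 13440 in GDNF 12, 13961 in GDNF 17 and 12364 in GDNF 22. The groups did not overlap, but GDNF 6 lay only just below control 21. Complex I held between 37.0% and 39.3% of this sum in every culture, complex II between 2.18% and 2.77%, and complex III between 9.45% and 10.2%. Complex IV held between 22.4% and 24.2%, and complex V between 24.9% and 28.4%. Counts are summed over transcripts, so genes with several listed transcripts weigh more in these shares. The summed levels of complexes II and V did not overlap between the groups, while for complexes I, III and IV GDNF 6 lay above control 21. By TPM, the sum over all complexes was 41133 ± 5244 (SD, n = 4) in controls and 35039 ± 2583 (SD, n = 4) in GDNF cultures, and the groups overlapped.

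**Figure D3:**
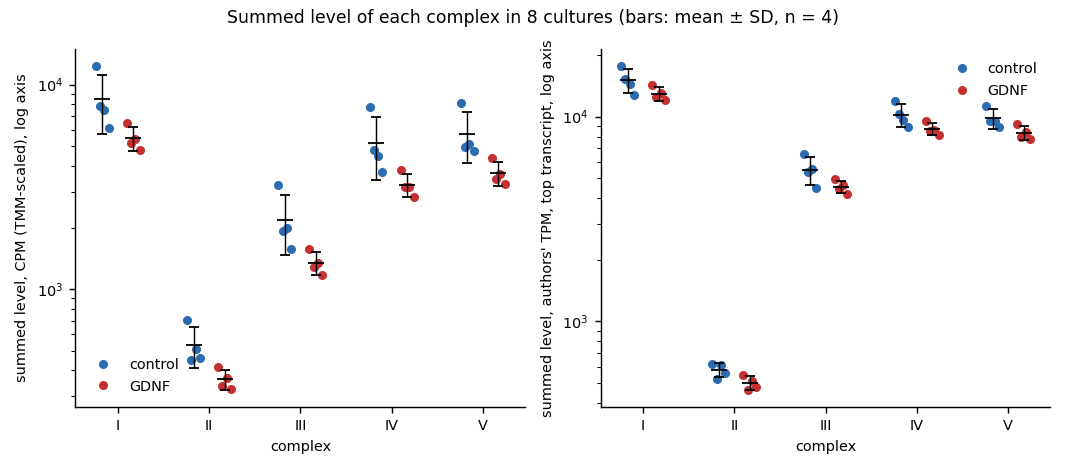
Summed level of the genes of each complex in each culture, in CPM (left) and in the authors' TPM of the transcript with most counts (right), both on log axes. Points are cultures and bars give the mean ± SD (n = 4); the highest control point of every complex in CPM is control 3. The log2 ratio of the means lies between −0.70 and −0.56 in CPM and between −0.27 and −0.22 in TPM.

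Complex I oxidizes NADH through a peripheral arm that reaches into the matrix. Of the 37 genes assigned to it by symbol, 32 were lower at an unadjusted p of 0.05, beside 12.9% of all genes, and 5 were not. Their median log2 fold change was −0.66. *Ndufa8*, an accessory subunit, was at 178, 106, 124 and 88.9 CPM in controls 3, 7, 14 and 21 and at 90.9, 65.8, 71.7 and 62.0 CPM in GDNF 6, 12, 17 and 22. Its groups overlapped only through GDNF 6 and control 21, and its log2 fold change was −0.77 ± 0.22 (SE, unadjusted p = 0.0061, adjusted p = 0.167 in edgeR). *Ndufa9*, a subunit near the junction of the arms, and *Ndufa1*, a small membrane subunit, both had a log2 fold change of −0.71.

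The core subunits *Ndufv1* and *Ndufs1* of complex I lay nearer to 0, but other core subunits did not all do so. *Ndufv2*, *Ndufs8* and *Ndufs3* had log2 fold changes of −0.58, −0.49 and −0.47. Each was lower at an unadjusted p of 0.05 in edgeR, while the core subunit *Ndufs7* was not. *Ndufv1*, which binds NADH and the flavin, was at 81.5, 50.4, 72.4 and 69.8 CPM in the controls and 68.1, 56.0, 58.4 and 52.5 CPM in the GDNF cultures. Its groups overlapped and its unadjusted p was 0.218 in edgeR. *Ndufs1*, the largest iron-sulfur subunit, was at 256, 191, 219 and 274 CPM in controls and 225, 186, 215 and 222 CPM in GDNF cultures, with a log2 fold change of −0.15 ± 0.15 (SE, unadjusted p = 0.343 in edgeR). *Ndufs1* overlaps *Eef1b2* on the opposite strand, and since no source used here states that strand was counted, reads of the overlap cannot be assigned. In all, 29 of the 84 genes have exons that overlap another gene. The remaining genes of complex I above the threshold were *Ndufs7* and *Ndufa10*, at −0.30 and −0.27, and *Ndufa4l2*, which is described with its paralogue.

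Complex II, succinate dehydrogenase, is the enzyme shared by the respiratory chain and the citric acid cycle, and its 4 genes split. *Sdhd*, on chromosome 9 (50596340 to 50603849, GRCm38.p6), encodes a membrane anchor and had the lowest log2 fold change of all genes that passed the unadjusted threshold. It was at 320, 201, 220 and 145 CPM in controls 3, 7, 14 and 21 and at 144, 117, 128 and 107 CPM in GDNF 6, 12, 17 and 22. All GDNF cultures lay below all controls, although GDNF 6 and control 21 almost met, and the log2 fold change was −0.83 ± 0.23 (SE, unadjusted p = 0.0043, adjusted p = 0.167 in edgeR). *Sdhc*, the other anchor, had a log2 fold change of −0.66 and *Sdhb*, the iron-sulfur subunit, of −0.61.

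*Sdha*, on chromosome 13 (74322255 to 74350240, GRCm38.p6), encodes the flavin subunit that oxidizes succinate. It was at 114, 91.2, 92.3 and 136 CPM in the controls and 117, 103, 109 and 97.9 CPM in the GDNF cultures. These values overlapped throughout, and the log2 fold change was −0.02 ± 0.16 (SE, unadjusted p = 0.894 in edgeR). Within each library, *Sdha* reached 23.5%, 34.7%, 29.6% and 40.0% of the TPM of *Sdhb* in controls 3, 7, 14 and 21 and 41.6%, 52.6%, 48.5% and 45.9% in GDNF 6, 12, 17 and 22. Every GDNF culture lay above every control in this proportion, which was singled out after its values were seen and was not tested. *Sdha* and *Ndufs1* have transcripts of 2859 and 2927 bases, the longest among the respiratory chain genes.

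Complex III was lower as a whole: all 8 of its genes were lower at an unadjusted p of 0.05, beside 12.9% of all genes. Their median log2 fold change was −0.70. *Uqcr10*, a small subunit, was at 554, 311, 322 and 220 CPM in the controls and 219.7, 201, 218 and 167 CPM in the GDNF cultures. All GDNF cultures lay below all controls, with GDNF 6 next to control 21, and the log2 fold change was −0.80 ± 0.26 (SE, unadjusted p = 0.0108 in edgeR). *Uqcrq*, the most abundant gene of the complex at 1152 TPM, had a log2 fold change of −0.75. *Uqcrfs1*, the Rieske iron-sulfur protein that takes electrons from ubiquinol, was at 196, 115, 98.9 and 125 CPM in controls and 116, 78.8, 87.9 and 75.7 CPM in GDNF cultures, so that GDNF 6 stood above controls 7 and 14. The core proteins *Uqcrc1* and *Uqcrc2* had log2 fold changes of −0.55 and −0.73, and in both GDNF 6 was well above the other GDNF cultures.

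In complex IV, cytochrome c oxidase, 11 of 15 tested genes were lower at an unadjusted p of 0.05, beside 12.9% of all genes. The median log2 fold change of the 15 was −0.65. *Cox6b1*, which faces the intermembrane space, was at 822, 469, 450 and 379 CPM in the controls and 366, 306, 307 and 281 CPM in the GDNF cultures. The groups did not overlap and the log2 fold change was −0.75 ± 0.24 (SE, unadjusted p = 0.0103 in edgeR). *Cox5a* and *Cox6c*, structural subunits, had log2 fold changes of −0.71 and −0.65. *Cox4i1*, the common form of a regulatory subunit, was at −0.76, and its exons overlap *Emc8* on the other strand.

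Forms of complex IV subunits known from muscle or testis ranged from near 0 counts to 56.9 TPM. *Cox7b2*, the testis counterpart of *Cox7b*, had at most 2 counts in a culture, *Cox8b*, a muscle form, had at most 3 and *Cox8c* at most 10. *Cox6a2* had 8, 7, 35 and 7 counts in the controls and 0, 22, 48 and 23 in the GDNF cultures, and its log2 fold change of 0.63 ± 1.01 (SE, unadjusted p = 0.549 in edgeR) gave no direction. *Cox7a1*, a muscle form, was at 17.4 TPM, with 6.26, 6.02, 3.65 and 3.12 CPM in the controls and 2.24, 4.47, 2.36 and 2.25 CPM in the GDNF cultures, which overlapped (log2 fold change −0.75, unadjusted p = 0.0526 in edgeR). *Cox6b2*, described mainly from testis, was at 56.9 TPM. Its level was 311 CPM in control 3 but between 90.6 and 113 CPM in the other controls, and the GDNF cultures lay between 68.8 and 126 CPM. This CPM sums the counts of 6 listed transcripts, so reads that they share count several times. By TPM, *Cox6b2* was at 2.82% to 5.49% of *Cox6b1* in controls and 3.26% to 6.03% in GDNF cultures.

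Alternative forms of a subunit were compared as the log2 ratio of counts per kilobase within a library, a measure that library scaling does not touch. The counts were summed over transcripts, so the level of a ratio also depends on how many transcripts each gene has. Of 10 pairs, 7 had at least 3 counts of each gene in every culture. None of the 7 ratios differed at p = 0.05 (exact two-sided permutation test of the difference of means over 70 assignments, smallest possible p = 0.0286). The smallest p was 0.0857 for *Atp5g1* over *Atp5g3*, with an adjusted p of 0.6 over the 7 ratios and a difference of 0.07. *Ndufa4l2*, an oxygen-regulated paralogue of *Ndufa4*, was at 42.4, 28.8, 36.9 and 10.7 CPM in controls 3, 7, 14 and 21 and 5.79, 32.9, 14.05 and 10.5 CPM in GDNF 6, 12, 17 and 22. It varied within each group far more than *Ndufa4*, which ranged from 591 to 1246 CPM in controls and from 496 to 568 CPM in GDNF cultures. *Cox4i2*, the oxygen-regulated form of *Cox4i1*, was at 0.169% to 0.447% of the TPM of *Cox4i1* in controls and 0.237% to 0.534% in GDNF cultures.

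*Ndufa4l2* and *Cox4i2* are also known from pericytes, and stromal markers varied between cultures. Summed pericyte and smooth muscle markers were at 371, 755, 2037 and 687 TPM in controls 3, 7, 14 and 21 and at 394, 1108, 1331 and 1287 TPM in GDNF 6, 12, 17 and 22. At an unadjusted p of 0.05, 1 of the 10 was higher, beside 9.25% of all genes, and 1 was lower, beside 12.9%. Fibroblast markers ranged from 105 to 1005 TPM in controls and from 119 to 795 TPM in GDNF cultures. Of 7 tested 1 was lower, beside the same 12.9% of all genes. Striated muscle markers summed to between 10.1 and 23.2 TPM, collecting duct markers to between 7.15 and 90.02 TPM and immune markers to between 4.34 and 10.6 TPM over all cultures, and none of these lists held a gene past an unadjusted p of 0.05. Control 3 and GDNF 6 had the smallest pericyte and fibroblast sums and the highest respiratory chain level of their group. *Ndufa4l2* was highest among controls in control 3, at 42.4 CPM, but lowest among GDNF cultures in GDNF 6, at 5.79 CPM. The part of stromal RNA in the respiratory chain values was not tested.

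Complex V joins a membrane rotor to a catalytic head, and 15 of its 17 genes were lower at an unadjusted p of 0.05, beside 12.9% of all genes. The median log2 fold change of the 17 was −0.64. *Atp5k*, subunit e of the membrane part, was at 262, 145, 153 and 133 CPM in the controls and 114, 101, 107 and 85.3 CPM in the GDNF cultures. No GDNF culture reached the lowest control, and the log2 fold change was −0.77 ± 0.22 (SE, unadjusted p = 0.0061 in edgeR). *Atp5o*, part of the peripheral stalk, and *Atp5j*, coupling factor 6, had log2 fold changes of −0.75 and −0.67. Exons of *Atp5j* overlap *Gabpa*, those of *Atp5o* overlap *Donson* on the same strand and antisense genes, and those of *Atp5a1* overlap *Haus1*. The catalytic subunit gene *Atp5b* was at 790 ± 210 CPM (SD, n = 4) in controls and 507 ± 77.2 CPM in GDNF cultures, and *Atp5a1*, its non-catalytic partner, at 395 ± 110 and 274 ± 44.0 CPM.

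The c ring of the rotor is built from 3 genes that encode the same mature protein. *Atp5g3* supplied 71.5% ± 0.832 (SD, n = 4) of their summed TPM in controls and 70.5% ± 0.580 in GDNF cultures. *Atp5g1* supplied 21.1% ± 0.544 and 21.9% ± 0.204, and *Atp5g2* 7.43% ± 0.629 and 7.64% ± 0.692. The shares of the 3 genes were therefore nearly fixed while their sum ranged from 1159 to 1665 TPM. *Atp5s* and *Atp5sl*, named in RefSeq *Dmac2l* and *Dmac2* and not subunits of the ring or head, had log2 fold changes of 0.03 and 0.07 and were the complex V symbols that did not pass.

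Transcript length was compared next, because length implied by the deposited counts and FPKM values set these genes apart from most others. The median length was 669 bases over the 84 genes, against 2437.5 bases over all 20312 detected genes. Of the 84, 58 were at most 1000 bases long, as were 15.6% of all detected genes. The share of each library's counts on transcripts of up to 1000 bases was 22.03%, 18.4%, 17.4% and 15.1% in controls 3, 7, 14 and 21 and 15.5%, 13.8%, 13.9% and 12.8% in GDNF 6, 12, 17 and 22. The share on respiratory chain genes followed the same order of cultures, from 3.36% in control 3 to 1.83% in GDNF 22. Their part of the short-transcript counts was steadier, at 11.2%, 10.5%, 10.2% and 9.88% in controls and 10.6%, 10.1%, 10.1% and 9.98% in GDNF cultures, and these overlapped.

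**Figure D4:**
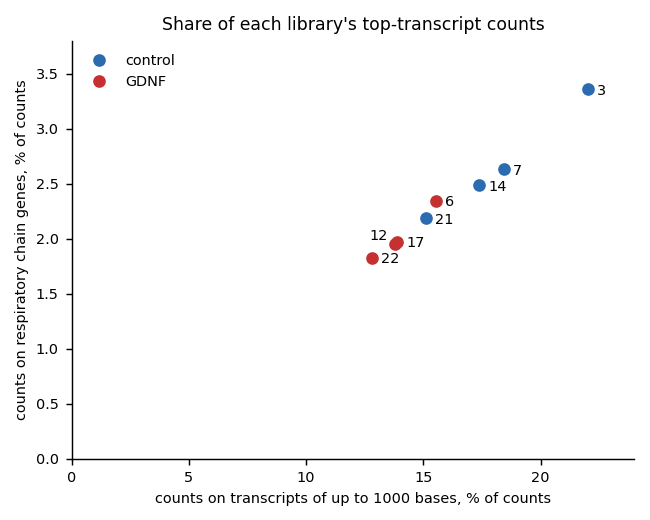
Share of each library's counts on respiratory chain genes (vertical axis, percent) against the share on all transcripts of up to 1000 bases (horizontal axis, percent), 1 point per culture with its number, counting the transcript with most counts for each gene. The points run from GDNF 22 at 12.8% and 1.83% to control 3 at 22.03% and 3.36%, and control 21 lies beside GDNF 6.

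Other short mRNAs had lower means in the GDNF cultures too, but short transcripts of all kinds did not. Over all 630 tested genes of up to 500 bases, the median log2 fold change was 0.24 and 11.6% were lower at an unadjusted p of 0.05, while over all genes of 501 to 750 bases it was −0.49 and over those of 751 to 1000 bases −0.47. The bins were therefore also read, after seeing the data, over mRNAs alone. Among genes whose leading transcript is a RefSeq mRNA, the median log2 fold change was −0.58 for 125 genes of up to 500 bases, where 14 respiratory chain genes had a median of −0.69. It was −0.58 for 501 to 750 bases against −0.68 for 31 respiratory chain genes, and −0.52 for 751 to 1000 bases against −0.59 for 10. In these bins 48%, 50.5% and 40.4% of the mRNAs were lower at an unadjusted p of 0.05. Of the respiratory chain genes, 13 of 14, 28 of 31 and 8 of 10 were. The 31 include *Ndufs6*, whose leading transcript is not a RefSeq mRNA, since the respiratory chain genes were not filtered in this way. Those with a leading mRNA also count in the medians over mRNAs. With longer transcripts the gap was wider: −0.37 against −0.59 for 12 genes of 1001 to 1500 bases, and −0.16 against −0.58 for 11 genes of 1501 to 2500 bases. There 30.7% and 17.4% of the mRNAs were lower at the same threshold, and 10 of the 12 and 9 of the 11 respiratory chain genes. Above 2500 bases the median of all such genes was 0.17, and the respiratory chain genes there were *Sdha*, *Ndufs1* and *Ndufa11*, the last of which was at −0.71 with 2661 bases. Exons of *Ndufa11* overlap *Vmac* on the opposite strand. Across the 81 genes, length and log2 fold change had a Spearman rho of 0.44, a description over genes that share the same 8 libraries.

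**Figure D5:**
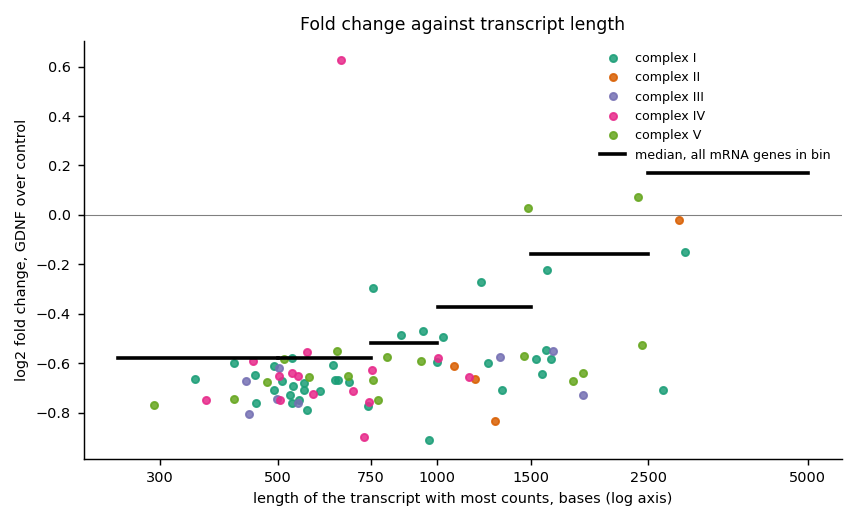
Log2 fold change, GDNF over control, of the 81 tested genes (points, coloured by complex) against the length of the transcript with most counts (log axis, bases). Black lines give the median of all tested genes with an mRNA in each bin of length, from −0.58 up to 500 bases to 0.17 above 2500 bases. Points of 1001 to 2500 bases mostly lie below the line of their bin.

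A trend of counts with transcript length was fitted over all genes tested in each culture and removed. With this fit 52 of the 81 genes were lower at an unadjusted p of 0.05, beside 12.1% of all genes. The median log2 fold change was −0.37 beside −0.03 for all genes. *Sdhd* was then at −0.59 (edgeR, unadjusted p = 0.0039) and *Atp5a1* at −0.50. The fit was not limited to mRNAs, so a trend of mRNAs alone was not removed. Before the fit, the median up to 500 bases was 0.24 over all genes and −0.58 over mRNAs alone. Without TMM, on library size alone, 44 were lower, beside 5.13%, and the median was −0.41, while the median of all genes tested stood at 0.25. In the authors' TPM the median log2 ratio of group means was −0.22 for respiratory chain genes and 0.42 for all genes tested. RNA integrity values are not given in the sources used here, and the part of RNA quality or library preparation in the length trend was not tested.

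Other highly expressed housekeeping families, not all of them short, had like medians. Of 85 tested cytosolic ribosomal protein genes, 80 were lower at an unadjusted p of 0.05, beside 12.9% of all genes. Their median log2 fold change was −0.63 and their median transcript length 694 bases. Of 39 proteasome subunit genes 31 were lower, with a median of −0.61 and a median transcript length of 1420 bases. Of 77 mitochondrial ribosomal protein genes 58 were lower, with a median of −0.57 and a median transcript length of 1053 bases. After removal of the length trend, the medians of these families were −0.34, −0.39 and −0.31 in the same order, beside −0.37 for the respiratory chain genes.

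Genes that work with the complexes were taken from lists chosen by function. Of 9 subunits and electron carriers that the symbol rule leaves out, 8 were lower at an unadjusted p of 0.05, beside 12.9% of all genes. Their median log2 fold change was −0.67. *Cycs*, which encodes cytochrome c, was at 180, 111, 112 and 138 CPM in controls and 97.5, 80.9, 99.2 and 89.9 CPM in GDNF cultures, with no overlap and a log2 fold change of −0.56. *Etfa*, a subunit of the flavoprotein that brings electrons from fatty acid oxidation to ubiquinone, was at −0.67.

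Assembly factors were compared with the background of 12.9% of all genes that were lower at an unadjusted p of 0.05. Their difference from the subunits was not tested. For complex I, 4 of 14 were lower and 0 higher, with a median log2 fold change of −0.29 that lay at −0.05 on library size alone, and *Ndufaf1*, a factor for the membrane arm, was at −0.55. For complex IV, 8 of 21 were lower with a median of −0.32, among them *Cox17*, the copper chaperone, at −0.62. For complexes II, III and V, 1 of 2, 1 of 5 and 1 of 3 were lower, these being *Sdhaf2* at −0.63, *Uqcc2* at −0.76 and *Tmem70* at −0.74. The assembly factor transcripts are longer than those of the subunits, with median lengths from 1193 to 2180 bases.

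Regulators of mitochondrial genes lay near the median of all genes. Of 16 tested, 3 were higher, beside 9.25% of all genes, and 0 lower, beside 12.9%, at an unadjusted p of 0.05. The median log2 fold change was 0.02, with −0.11 after removal of the length trend and 0.26 on library size alone, where all genes stood at 0.25, and the median transcript length was 3709 bases. *Ppargc1b*, a coactivator of mitochondrial biogenesis, was at 1.27, 1.12, 1.42 and 1.46 CPM in the controls and 1.93, 2.51, 2.06 and 2.29 CPM in the GDNF cultures. The groups did not overlap and the log2 fold change was 0.74 ± 0.27 (SE, unadjusted p = 0.020, adjusted p = 0.175 in edgeR). *Polrmt*, the mitochondrial RNA polymerase, was at 0.44 and *Gabpb2*, a partner of an ETS factor, at 0.41.

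Of 16 genes of the citric acid cycle and pyruvate dehydrogenase, 5 were lower at an unadjusted p of 0.05, beside 12.9% of all genes. None was higher, beside 9.25% of all genes, and the median log2 fold change was −0.29. *Fh1*, fumarate hydratase, was at 114, 76.1, 97.9 and 70.3 CPM in controls and 62.2, 48.0, 47.1 and 53.2 CPM in GDNF cultures, with a log2 fold change of −0.77. Of 9 tested targets of hypoxia-inducible factors, 3 were lower and 0 higher, beside the same shares, with a median of −0.75. The lowest p was that of *Ldha*, lactate dehydrogenase A. *Ldha* was at 8027, 4199, 5535 and 4121 CPM in controls and 1877, 3081, 2596 and 2079 CPM in GDNF cultures, without overlap, and its log2 fold change was −1.18 ± 0.26 (SE, adjusted p = 0.167 in edgeR).

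Promoter sequences were examined because most genes of all 5 complexes were lower together, while 12 of the 81, *Sdha* among them, did not pass the unadjusted threshold. The 250 bases before to 50 bases after the start site were taken from RefSeq promoters of GRCm38.p6, in which 69 of the 84 genes had an entry. Those without one included *Atp5a1*, *Cox4i1*, *Cox4i2*, *Cox6a2*, *Cox6c*, *Cox8c*, *Ndufa2*, *Ndufa4l2*, *Ndufb9*, *Ndufs1*, *Sdhc*, *Uqcrb*, *Uqcrc2* and *Uqcrq*. The motif of NRF1, a factor long tied to respiratory chain genes, was searched on both strands as GCGCANGCG and occurred in 20 of 69 genes (29.0%), beside 7.03% of 27025 genes with a promoter. The ETS motif CCGGAAG, read by GABP, occurred in 16 (23.2%), beside 9.93%, and the YY1 motif AAGATGGCG in 8 (11.6%), beside 1.64%. At least 1 of these motifs was found in 36 genes (52.2%), beside 16.5% of all genes with a promoter. That background was not limited to the genes tested here and was not matched for expression. CCAAT and the SP1 motif GGGCGG were about as frequent as elsewhere, at 44.9% and 40.6% beside 41.1% and 38.2%, and TATAAA occurred in 10.1% beside 15.7%. A match is a description of letters and not a binding site.

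The 200 bases before the start site are shown for *Sdha*, whose level was alike in both groups, for *Sdhd*, the lowest in the same complex, and for *Ndufa8* and *Cox6a1*, which were lower and carry several NRF1 matches. Sequences read 5′ to 3′ on the minus strand, where all 4 genes lie, and capitals mark letters of an NRF1 or ETS match on either strand, with overlapping matches in 1 run. *Sdha* is at chr13:74350241-74350440, *Sdhd* at chr9:50603850-50604049, *Ndufa8* at chr2:36049339-36049538 and *Cox6a1* at chr5:115348959-115349158.
Sdha: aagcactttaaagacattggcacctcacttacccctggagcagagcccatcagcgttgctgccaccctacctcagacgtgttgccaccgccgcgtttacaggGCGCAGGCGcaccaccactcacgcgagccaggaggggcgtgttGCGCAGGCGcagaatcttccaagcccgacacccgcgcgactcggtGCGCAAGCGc
Sdhd: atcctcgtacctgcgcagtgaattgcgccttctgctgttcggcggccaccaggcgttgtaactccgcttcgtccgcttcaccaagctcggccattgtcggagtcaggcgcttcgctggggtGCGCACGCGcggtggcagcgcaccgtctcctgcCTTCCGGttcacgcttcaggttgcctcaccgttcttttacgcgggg
Ndufa8: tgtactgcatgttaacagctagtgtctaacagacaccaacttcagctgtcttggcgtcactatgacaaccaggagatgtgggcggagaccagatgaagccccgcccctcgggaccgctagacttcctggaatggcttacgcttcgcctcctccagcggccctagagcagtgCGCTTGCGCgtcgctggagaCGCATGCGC
Cox6a1: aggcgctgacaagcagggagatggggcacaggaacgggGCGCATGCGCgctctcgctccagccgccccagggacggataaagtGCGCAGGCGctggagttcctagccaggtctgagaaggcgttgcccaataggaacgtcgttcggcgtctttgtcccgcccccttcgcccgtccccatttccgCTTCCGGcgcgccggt
*Sdha* held 3 NRF1 matches and no ETS match in this stretch, and *Sdhd* held 1 of each. The log2 fold changes were −0.02 for *Sdha*, −0.83 for *Sdhd*, −0.77 for *Ndufa8* and −0.64 for *Cox6a1*. These genes were picked by fold change or by their matches, and a relation of motif to fold change was not tested.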

How the data were processed

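RNA-Seq libraries of 8 tubuloid cultures (4 GDNF, 4 control) were made by SMART-Seq v4 from poly-A RNA. Per the labels, the authors mapped reads with STAR and counted them to mm10 (GRCm38); featureCounts and DESeq2 are also listed in the submitters' processing notes, and versions, strand and rules for multi-mapping reads are not given in the sources used here. The deposited files hold a raw count for each of 33068 RefSeq transcripts. The deposited FPKM values are counts per length and library total, and were used only to obtain length, which was whole within 0.01 bases for 100% of transcripts with counts. TPM, as scaled by the authors, was taken for the transcript with the highest mean count of each gene.

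Counts were summed per symbol, so that reads shared by transcripts of a gene count several times (12 of 84 respiratory chain genes have several), and reads of processed pseudogenes and paralogues could be split. Groups and culture numbers came from the labels, which share no numbers between groups. edgeR 4.0.16 in R 4.3.3 (filterByExpr, TMM, glmQLFit, glmQLFTest, Benjamini-Hochberg adjustment over 16557 genes, threshold 0.05) was the test, and the SE is the log2 fold change over the square root of F. Paralogue ratios were compared by exact permutation tests over 70 assignments. Counting error at this depth is small beside the spread between cultures except for genes of a few counts. Alternatives were DESeq2 1.42.0, limma-voom (limma 3.58.1), other scalings, no filter, 1 transcript per gene, a spline of length (5 degrees of freedom), a covariate for *Xist* or Y-linked RNA, and each culture left out. Fits within *Xist* or Y-linked cultures and mRNA-only bins were chosen after seeing the data. Steps were tested on simulated data. Respiratory chain genes and gene lists were chosen with earlier results of these data known. Genes named singly were, in each complex, the 3 with the highest TPM and the 3 with the smallest p, the paralogue pairs and 10 core subunits; from other lists, up to 3 of smallest p. 1 gene is counted but not reported here on its own. Others (*Ndufs7*, *Ndufa10*, *Ndufa11*, *Ndufs3*, *Ndufs6*, *Ndufs8*, *Ndufv2*, *Cox8c*, *Atp5s*, *Atp5sl*) were named after their values were seen. Figures used Python 3.11.15 with matplotlib 3.10.9. Which flow cell lane held each culture is not given in the sources used here, and lane and group cannot be told apart.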

Additional observations from a re-analysis of the deposited data

Results flagged for a closer look

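In 10 of 110 groups of 4 values examined, 1 culture lay farther from the others than Dixon's 95% limit allows, where chance flags about 1 in 20 groups, which is 6 of 110. Control 3 was high for *Atp5g3* (704 CPM, the other controls 402 to 410), *Atp5g1* (479 CPM, others 276 to 299), *Atp5g2* (60.2 CPM, others 41.1 to 43.3), *Atp5k* (262 CPM, others 133 to 153) and the sum of complex V (8152 CPM, others 4738 to 5123). It was also high for *Cox6b2* (311 CPM, others 90.6 to 113). GDNF 6 was high for the core proteins of complex III, *Uqcrc1* (168 CPM, the other GDNF cultures 119 to 123) and *Uqcrc2* (140.6 CPM, others 103 to 109). GDNF 12 was high for *Cox7a1*, the muscle form of a complex IV subunit (4.47 CPM, others 2.24 to 2.36), and control 14 for *Cox6a2* (0.374 CPM, others 0.0731 to 0.111). Genes of a complex share their libraries, so these results are not independent of each other.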

How the results depend on the processing

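The count of 69 respiratory chain genes lower at an unadjusted p of 0.05 (edgeR) was 44 on library size alone, 45 within the *Xist* cultures and 28 within the Y-linked cultures, and 43 (without GDNF 22) to 73 (without control 21) with each culture left out. DESeq2 called 48 at an adjusted p of 0.05 where edgeR called 0, and the cause was not tested. With the length spline the median of complex I was −0.37 and that of complex II −0.38, and on library size alone that of complex II was −0.40. Summed levels in TPM gave log2 ratios of −0.22, −0.22, −0.27, −0.225 and −0.24 for complexes I to V. *Sdha* had no stable sign: 0.20 on library size alone, 0.012 with upper-quartile scaling, 0.10 within the *Xist* cultures, and −0.0958 to 0.062 with each culture left out. On library size alone *Ndufv1* was at 0.0078 and *Ndufs1* at 0.072, and *Cox6a2* was at −0.22 in limma-voom. The number of paralogue ratios past p = 0.05 (exact permutation test) was 0 to 1 with each culture left out, the 1 being *Atp5g1* over *Atp5g3* without control 21. The ratio difference ranged from −0.34 to 0.13 for *Cox4i2* over *Cox4i1*, −0.0457 to 0.32 for *Cox6b2* over *Cox6b1*, −0.12 to 0.024 for *Cox7a2l* over *Cox7a2* and −0.00772 to 0.10 for *Atp5g2* over *Atp5g3*. Over the 43 genes named by rule, 779 values under the alternatives kept their direction and their side of an adjusted p of 0.05, 28 came below it and 9 changed sign, and this says nothing of the unadjusted threshold, at which calls were lost as given above. No paired analysis was possible because the groups share no culture numbers. Depth limits only *Cox6a2*, *Cox7b2*, *Cox8b* and *Cox8c*.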
